A study of Mus musculus with 18 samples.

Results

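The genes described here are 47 members of the machinery that repairs broken or cross-linked DNA and halts the cell cycle while it does so, out of 12048 genes in the deposited tables. They were chosen by name for their roles in homologous recombination, the Fanconi pathway, the damage checkpoint and neighbouring repair routes. The choice was made with earlier results of these data known, and all 47 were measured. By role they comprised 11 genes of strand exchange and its mediators, 9 of the Brca1 complexes, end resection and helicases, 8 of the Fanconi core and its substrates, 12 checkpoint kinases, clamp subunits and adaptors, and 7 of mismatch repair, base excision, break sensing and lesion bypass. Transcripts came from cardiomyocytes of Mlc2vcre:R26REYFP mice, in which Cre driven by the ventricular light chain gene Mlc2v (Myl2) switches on a yellow fluorescent protein. All 6 groups shared this genotype: mononucleated and binucleated cells from fetuses at E18.5, from pups at P7 and from adults, with 3 libraries per group and 18 in all. Replicates are not labelled as separate animals, and p-values therefore reflect only how far these libraries spread, which may be technical.

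Homologous recombination copies an intact sister chromatid to mend a break, so it works mainly in cells that have replicated their DNA. The Fanconi pathway unhooks cross-links that block replication forks, and the checkpoint kinases Atm and Atr signal damage and stalled forks through Chek2 and Chek1. Mouse cardiomyocytes stop dividing soon after birth, when many pass through a last round of DNA synthesis that ends in a second nucleus instead of a second cell. Some repair proteins serve non-dividing cells too, which is why cycling-linked members are told here from steady ones.

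Levels are given as CPM, a scaled share of each library: whole read counts recovered from the deposited log2 values, scaled by TMM library sizes. They are not corrected for gene length, so they are compared between groups within a gene and not between genes. The libraries held 14833334 to 22690952 recovered counts each. Binucleated replicate 1 at E18.5 had the lowest total and stood apart, correlating at 0.884 to 0.896 with its own group. Summed CPM of 10 cardiomyocyte markers lay between 32000 and 57900 in every library, but the groups differed. At P7 each binucleated library (47000 to 52800) exceeded each mononucleated one (39800 to 41400). The order was opposite at E18.5, where binucleated sums of 32000 to 41100 stayed below mononucleated sums of 41400 to 47600. Of the 10 markers 0 were called between classes at either age. Adult sums began at 54300 and overlapped between classes. Whether this sum bears on the results below was not tested. At E18.5 the binucleated libraries held more fibroblast marker transcripts (summed CPM 342 to 944 against 66 to 117 in mononucleated ones, 6 of 9 markers higher), more endothelial (57.5 to 112 against 15.6 to 33.2, 5 of 10 higher) and more leukocyte transcripts (14.4 to 39 against 2.37 to 3.16, 5 of 6 higher). At P7 the mononucleated libraries held more fibroblast (73.4 to 172 against 49.5 to 65.6, 1 marker called) and leukocyte transcripts (15.1 to 25.9 against 2.36 to 4.79). Of the 6 leukocyte markers 1 was called lower in binucleated cells, while the median log2 fold change of the 6 was 0.70, so the sum does not speak for the whole list. In the adult, endothelial markers summed to 84.7 to 89 CPM in mononucleated and 96.6 to 116 CPM in binucleated libraries, against 10.4 to 24.7 and 10.7 to 11.9 CPM at P7 (9 and 10 of 10 markers higher). Leukocyte markers summed to 12.9 to 17.3 and 10 to 11.3 CPM, against 15.1 to 25.9 and 2.36 to 4.79 CPM at P7. Of these 6 markers 5 and 4 were called higher, and 1 lower in mononucleated cells. There the sum did not rise with the calls. Summed CPM of 7 pericyte and smooth muscle markers lay between 788 and 1680 in every library, with 1 marker called higher in binucleated cells at E18.5. Erythroid markers at E18.5 summed to 101 to 177 CPM in binucleated and 38.5 to 67.3 CPM in mononucleated libraries, with 0 of 5 called. The part of these cells in the results below was not tested. In bulk libraries, fewer cells of a type and less RNA per cell cannot be told apart.

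The members parted mainly at P7. Of the 47, 13 stood lower in binucleated than mononucleated cells by the limma test (adjusted p under 0.05, Benjamini and Hochberg over all genes) and 0 were higher. In that comparison 2.12% of all genes were called in either direction and 2.06% were lower. The median log2 fold change of the members was −0.90, against 0.02 over all genes, and 42 of 47 had a negative value. Of the 13 calls, 7 held when any 1 library was left out: Rad54l, Brip1, Fancb, Chek1, Topbp1, Neil3 and Rad18. The libraries of both classes did not overlap for 36 members that were lower in binucleated cells, where 14.7% of all genes were lower without overlap, and for 1 member that was higher, where 9.82% were. At E18.5, 0 members passed the limma test (0.805% of all genes did; 2 members at an unadjusted p under 0.05), and the median was −0.11. Libraries did not overlap for 6 members higher (6.84% of all genes) and 2 lower (7.08%) in binucleated cells. In the adult 0 passed as well (0.0913% of all genes; 4 members at an unadjusted p under 0.05), with a median of −0.03; 1 member was higher without overlap (2.53% of all genes) and 3 were lower (3.71%).

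Each member was then placed by its calls in the same tests, as a description. Cycling-linked are the 13 members lower in binucleated cells at P7 and lower in the adult than at E18.5 in both classes. Age-linked are 24 that changed with age and had no call between classes, and steady are 10 with no call in any of 11 comparisons. The border between cycling-linked and age-linked was narrow: Chek2 and Fancc lay just inside with limma adjusted p of 0.0418 and 0.043 at P7, and Brca2 and Msh6 just outside with 0.0782 and 0.0842. Of the 24 age-linked members, 20 were lower in binucleated cells at P7 without overlap, as were 3 of 10 steady members, where 14.7% of all genes were. All 13 cycling-linked members were too, which their choice by the P7 call fixes in part. The placement also moved with the processing and with 1 library. Array weights gave 28 cycling-linked, 13 age-linked and 2 steady members, and quantile normalization gave 8, 25 and 13. Without binucleated replicate 1 at E18.5 there were 20 cycling-linked, 20 age-linked and 6 steady members, and 5 of the 10 steady ones stayed so. Without binucleated replicate 2 at P7 there were 7 cycling-linked, 29 age-linked and 10 steady.

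**Figure D1:**
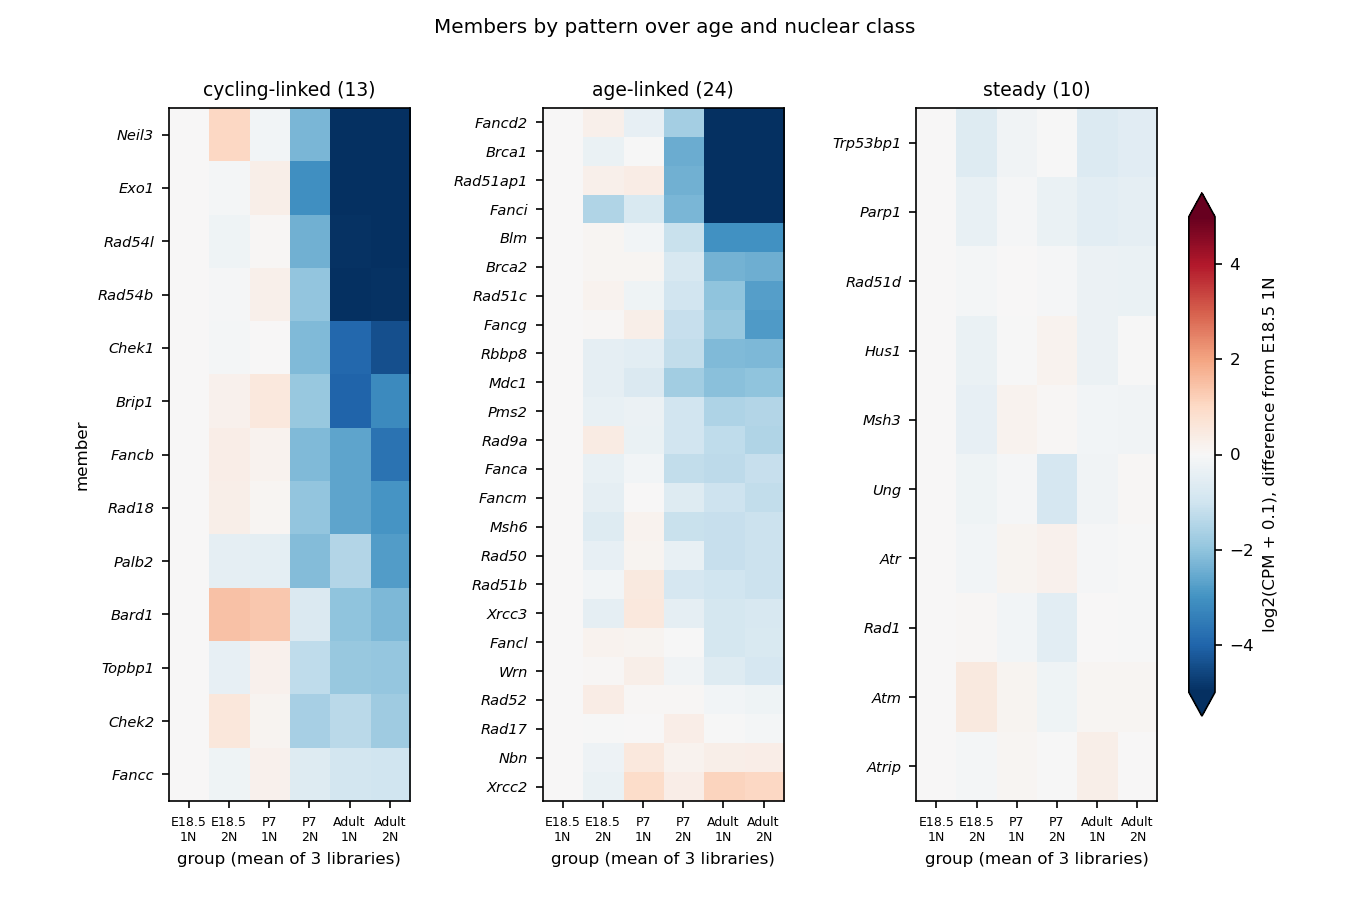
Each row is a member and each column a group (1N mononucleated, 2N binucleated); colour gives the mean of 3 libraries on the log2(CPM + 0.1) scale minus that of E18.5 mononucleated cells, and differences beyond the end of the scale share its darkest colour. In the P7 binucleated column the cycling-linked members lie between −3.07 and −0.63 and the age-linked between −2.50 and 0.34, so these patterns overlap there; the 10 steady members lie between −0.84 and 0.48 over all columns.

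Promoter sequences were read for the members with an entry in the RefSeq table (build GRCm38.p6), which covered 37 of 47. Windows ran from 250 bases before to 50 after the gene start. They were searched on both strands for letters bound by E2f factors, which switch on genes of DNA replication: TTTGGCGC, TTTCCCGC, TTTGCCGC and TTTCGCGC. At least 1 of them stood in the windows of 9 of 37 members (24.3%), against 4.78% of 9376 genes of the table with a window and 2.26% of all 32851 windows. By pattern they stood in 3 of 11 cycling-linked, 5 of 17 age-linked and 1 of 9 steady members. Windows with TTTGAA, the core of the cell cycle homology region, belonged to 3 members (8.11%, against 14.1% of genes of the table and 17.9% of all windows), and CCAAT to 18 (48.6%, against 43.3% and 37.4%). A match is a description and not a bound site. For comparison, 60-base stretches are printed, 5′ to 3′ on the gene's strand, of 3 cycling-linked members and of Msh3, the steady member with a match, with the matching letters in capitals. Bard1 lies at chr1:71103142-71103201 (minus strand), Chek2 at chr5:110839811-110839870 (plus), Topbp1 at chr9:103305178-103305237 (plus) and Msh3 at chr13:92355166-92355225 (minus). In Msh3 a pair of matches on opposite strands overlap.
Bard1: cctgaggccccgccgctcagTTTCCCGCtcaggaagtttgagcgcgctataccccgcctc
Chek2: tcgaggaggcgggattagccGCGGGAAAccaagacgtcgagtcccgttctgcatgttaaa
Topbp1: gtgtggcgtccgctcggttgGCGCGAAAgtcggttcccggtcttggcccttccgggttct
Msh3: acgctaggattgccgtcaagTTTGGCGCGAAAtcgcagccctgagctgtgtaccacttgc

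Among the genes of strand exchange, Rad54l, a motor protein of strand invasion, showed the class difference most plainly (ENSMUSG00000028702). In mononucleated cells at P7 its level was 18.3, 23.7 and 20.5 CPM, and in binucleated cells 3.58, 2.85 and 4.96 CPM. At E18.5 it had been 19.4, 16.1 and 24.6 CPM in mononucleated and 9.55, 22.4 and 22.9 CPM in binucleated cells, which overlap. The classes at P7 thus lay far apart, 5.56-fold lower in binucleated cells (−2.48 ± 0.35 SE on the log2 scale, with 3 libraries a class; limma adjusted p = 0.000646). Adult levels were 0.367 to 0.691 CPM in mononucleated and 0.459 to 0.6 CPM in binucleated cells, 34.8-fold and 30.5-fold below E18.5. Its relative Rad54b differed in the same direction at P7, with 6.57 to 9.48 CPM in mononucleated and 1.01 to 1.86 CPM in binucleated cells (−2.32 ± 0.49 SE, limma adjusted p = 0.018, and 0.111 without mononucleated replicate 3). Palb2, which bridges Brca1 and Brca2, stood at 4.12, 5.22 and 3.78 CPM in mononucleated and 1.77, 0.744 and 1.63 CPM in binucleated cells at P7 (−1.72 ± 0.41 SE, limma adjusted p = 0.0363, and 0.188 without binucleated replicate 2).

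The other strand exchange genes had no class call as fitted. Rad51ap1, a cofactor of strand exchange, had a larger estimate than Rad54l with more spread (−2.82 ± 0.83 SE, limma adjusted p = 0.107), although its levels of 13.4 to 20.6 CPM in mononucleated and 1.61 to 3.49 CPM in binucleated cells at P7 did not overlap. Its P7 difference was called with array weights, voom weights, an offset of 2 counts and only the libraries of the ages compared. It was also called without adult mononucleated replicate 1. Brca2, a mediator of recombination, had 13.5, 23.8 and 18.9 CPM against 9.59, 8.19 and 11.9 CPM (−0.90 ± 0.25 SE, limma adjusted p = 0.0782). Both were lower in the adult than at E18.5 in each class, Brca2 by 5.28-fold and 5.85-fold and Rad51ap1 by 63.3-fold and 94.1-fold. The Rad51ap1 folds rest on 17 and 8 counts in the adult groups. Rad51b, Rad51c, Rad51d and Xrcc3, which assist strand exchange, did not move together. Rad51c was lower in the adult than at E18.5 in both classes (4.1-fold and 7.77-fold). Rad51b and Xrcc3 were lower only in the call of adult against P7 mononucleated cells (limma adjusted p = 0.0215 and 0.0084); other comparisons of these genes did not pass. Rad51d was steady, with 16.7 to 27.3 CPM over all 18 libraries and no log2 fold change beyond 0.29 in size. Rad52, a single-strand annealing protein, was lower in adult than in E18.5 binucleated cells (−0.57 ± 0.23 SE, limma adjusted p = 0.0486) and in no other comparison (up to 0.12 without 1 library).

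**Figure D2:**
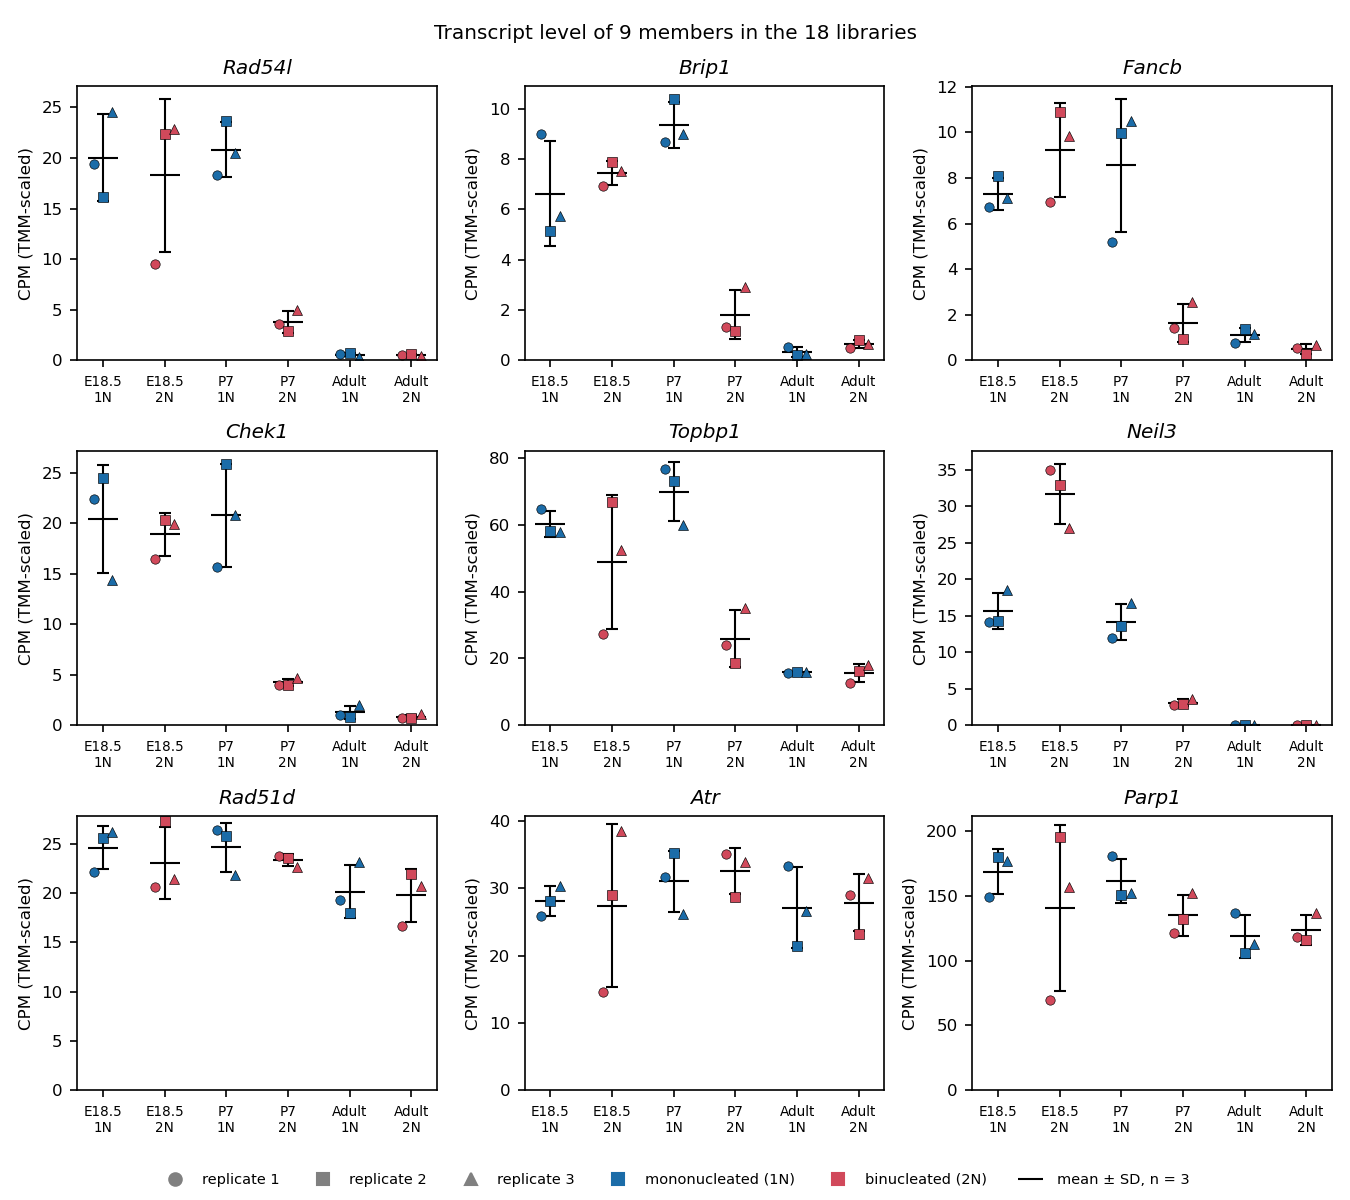
Level of 9 members in each library on linear CPM axes that start at 0; points are libraries, with replicates told apart by shape, and bars give the mean and SD of 3. Rad54l, Brip1, Fancb, Chek1, Topbp1 and Neil3 are low in P7 binucleated cells and in the adult, whereas Rad51d, Atr and Parp1 differ less between groups and overlap between classes at each age.

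In the Brca1 group, 3 of 9 members were lower in binucleated cells at P7 and none was steady. Brip1, a helicase that binds Brca1, had 8.68, 10.4 and 9.02 CPM in mononucleated and 1.31, 1.18 and 2.93 CPM in binucleated cells (−2.47 ± 0.40 SE, limma adjusted p = 0.00219). Exo1, a nuclease that resects break ends, had 11.6, 14.8 and 14.6 CPM against 1.51, 0.744 and 1.69 CPM (−3.42 ± 0.66 SE, limma adjusted p = 0.00857, and 0.0599 without binucleated replicate 2). Neither gene's classes overlapped. Bard1, the partner of Brca1 in its ubiquitin ligase, had 3.39, 4.05 and 4.6 CPM against 0.908, 0.682 and 1.07 CPM (−2.15 ± 0.52 SE, limma adjusted p = 0.0399). That call was lost with the postnatal block (limma adjusted p = 0.101) and without mononucleated replicate 3 (0.179). The postnatal block takes the replicate number as a term at P7 and in the adult, the ages where it pairs the libraries more closely. Brca1 itself had 16, 12 and 13.8 CPM in mononucleated and 1.72, 2.17 and 3.61 CPM in binucleated cells at P7, a difference with no overlap that did not pass (−2.53 ± 0.98 SE, limma adjusted p = 0.318). As fitted, Brca1 was called only with age. Adult libraries held 0 to 0.691 CPM, 64-fold lower than at E18.5 in mononucleated and 74.5-fold lower in binucleated cells on the fitted scale. With voom weights, an offset of 2 counts or only the libraries of the ages compared, Brca1 was called lower in binucleated cells at P7 too.

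Exo1 had no count left in the 3 adult mononucleated libraries, at least 192-fold lower than at E18.5 and at least 221-fold lower than at P7, with a floor of 3 counts over the group. The helicase gene Blm, which unwinds recombination intermediates, and Rbbp8, which starts resection, were lower in the adult than at E18.5 in both classes (Blm 8.49-fold and 9.11-fold, Rbbp8 4.67-fold and 3.47-fold). The break sensor subunits Rad50 and Nbn parted from each other. Rad50 was lower in the adult than at E18.5 (−1.13 ± 0.26 SE and −0.67 ± 0.26 SE, limma adjusted p = 0.00155 and 0.038). Nbn held 51.7 to 69 CPM in E18.5 mononucleated and 65.4 to 84.8 CPM in adult mononucleated cells, and 35.1, 65.8 and 60.2 against 78.3, 74.9 and 80.5 CPM in binucleated cells. Only the binucleated difference passed (0.59 ± 0.19 SE, limma adjusted p = 0.0143), and the call was lost without binucleated replicate 1 at E18.5 (0.0507) and with library totals as scaling. Wrn, a helicase gene, was lower in the adult in 2 comparisons, both by less than 2-fold.

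Among Fanconi genes, 2 of 8 were lower in binucleated cells at P7. Fancb, a core subunit of the ligase that marks Fancd2 and Fanci, had 5.21, 9.97 and 10.5 CPM in mononucleated and 1.41, 0.93 and 2.54 CPM in binucleated cells (−2.43 ± 0.42 SE, limma adjusted p = 0.00387). Fancc, another core subunit, had 17.7, 19.2 and 16.5 CPM against 11.4, 8.81 and 9.52 CPM (−0.85 ± 0.21 SE, limma adjusted p = 0.043, and 0.0611 with the postnatal block and 0.181 without binucleated replicate 2). Neither overlapped between classes. All 8 Fanconi members were lower in adult than in E18.5 mononucleated cells, and 6 of 8 in binucleated cells; 53.8% and 57.7% of all genes were called in those comparisons, in either direction, and 27.7% and 29.4% were lower, 26.2% and 28.3% higher. The catalytic subunit gene Fancl was the one with the smallest class difference at P7 (−0.15 ± 0.15 SE).

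The ligase's substrates, Fancd2 and Fanci, were lower in the adult than at E18.5 in both classes. Fancd2 had 1 count over the adult mononucleated libraries against 915 at E18.5, a ratio of 625 (95% exact counting interval 112 to 2.47e+04), and 3 counts in adult binucleated libraries against 1329, a ratio of 327 (112 to 1.59e+03). At P7 it stood at 10.2, 8.86 and 9.6 CPM in mononucleated and 4.39, 3.66 and 3.55 CPM in binucleated cells, with no overlap and no call (−1.30 ± 0.66 SE, limma adjusted p = 0.563). With only the libraries of the ages compared, Fancd2 was called lower in binucleated cells at P7. Fanci had 8.73, 10.3 and 10 CPM against 3.58, 3.04 and 3.38 CPM at P7, again with no overlap and no call (−1.53 ± 1.20 SE, limma adjusted p = 0.856). At E18.5 the binucleated libraries held 0.191, 29.2 and 23.8 CPM. Without that library, binucleated replicate 1, the P7 class difference of Fanci passed the limma test with the same estimate (adjusted p = 0.0185).

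Of 12 checkpoint genes 3 were lower in binucleated cells at P7 and 6 were steady. Chek1, the kinase that acts for Atr at stalled forks, had 15.7, 25.9 and 20.8 CPM in mononucleated and 4.04, 4.03 and 4.68 CPM in binucleated cells at P7 (−2.26 ± 0.31 SE, limma adjusted p = 0.000637). Topbp1, which activates Atr, had 76.8, 73 and 59.9 CPM against 23.9, 18.7 and 35.2 CPM (−1.47 ± 0.27 SE, limma adjusted p = 0.00635). Chek2, the kinase that acts for Atm, had 3.95, 5.08 and 4.07 CPM against 0.757, 1.74 and 1.24 CPM (−1.86 ± 0.45 SE, limma adjusted p = 0.0418, and 0.0563 with the postnatal block and 0.206 without binucleated replicate 1). For these 3 genes the classes did not overlap at P7.

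The kinases that act upstream of them were steady. Atr ranged from 14.6 to 38.6 CPM and its partner Atrip from 14.1 to 24.9 CPM over the 18 libraries, and neither had a log2 fold change beyond 0.35 in size. At P7 Atr had 31.7, 35.2 and 26.2 CPM in mononucleated and 35.1, 28.7 and 34 CPM in binucleated cells, which overlap. Atm, the kinase of double-strand breaks, ranged from 5.6 to 16.9 CPM without a call. Of the clamp that holds the checkpoint at damage, Hus1 and Rad1 were steady but Rad9a was lower in the adult than at E18.5 (2.45-fold and 3.79-fold). Its loader Rad17 was the member whose P7 libraries lay higher in binucleated cells, with 52, 57.8 and 53.8 CPM against 70, 68.7 and 64.6 CPM (0.31 ± 0.13 SE, limma adjusted p = 0.358). Trp53bp1, which steers breaks towards end joining, was steady, and Mdc1, a scaffold at breaks, was lower in the adult than at E18.5 (4.34-fold and 2.98-fold).

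In the last role, Neil3, a glycosylase that also opens cross-links, fell furthest. It had 12, 13.6 and 16.8 CPM in mononucleated and 2.72, 2.92 and 3.66 CPM in binucleated cells at P7 (−2.18 ± 0.39 SE, limma adjusted p = 0.00463). No count was left in adult mononucleated libraries, at least 254-fold lower than at E18.5, and 1 count in adult binucleated ones against 2086 at E18.5, a ratio of 1.54e+03 (95% exact counting interval 276 to 6.09e+04). Rad18, the ligase that starts lesion bypass, had 8.99, 14.1 and 15.2 CPM against 2.98, 2.48 and 3.27 CPM at P7 (−2.10 ± 0.33 SE, limma adjusted p = 0.00168). Both genes kept separate classes at P7. Msh6, which recognises mismatches, had 62.4, 68.7 and 52.7 CPM against 27.3, 22.1 and 26 CPM with no call (−1.28 ± 0.36 SE, limma adjusted p = 0.0842; 0.000289 without binucleated replicate 1 at E18.5). Msh3, which recognises larger loops, had 29.4, 30.2 and 30.3 CPM against 27.4, 28.3 and 27.6 CPM. Pms2, the mismatch endonuclease, was lower in the adult than at E18.5 (2.94-fold and 2.14-fold), and Parp1, a sensor of strand breaks, ranged from 69.8 to 195 CPM without a call.

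**Figure D3:**
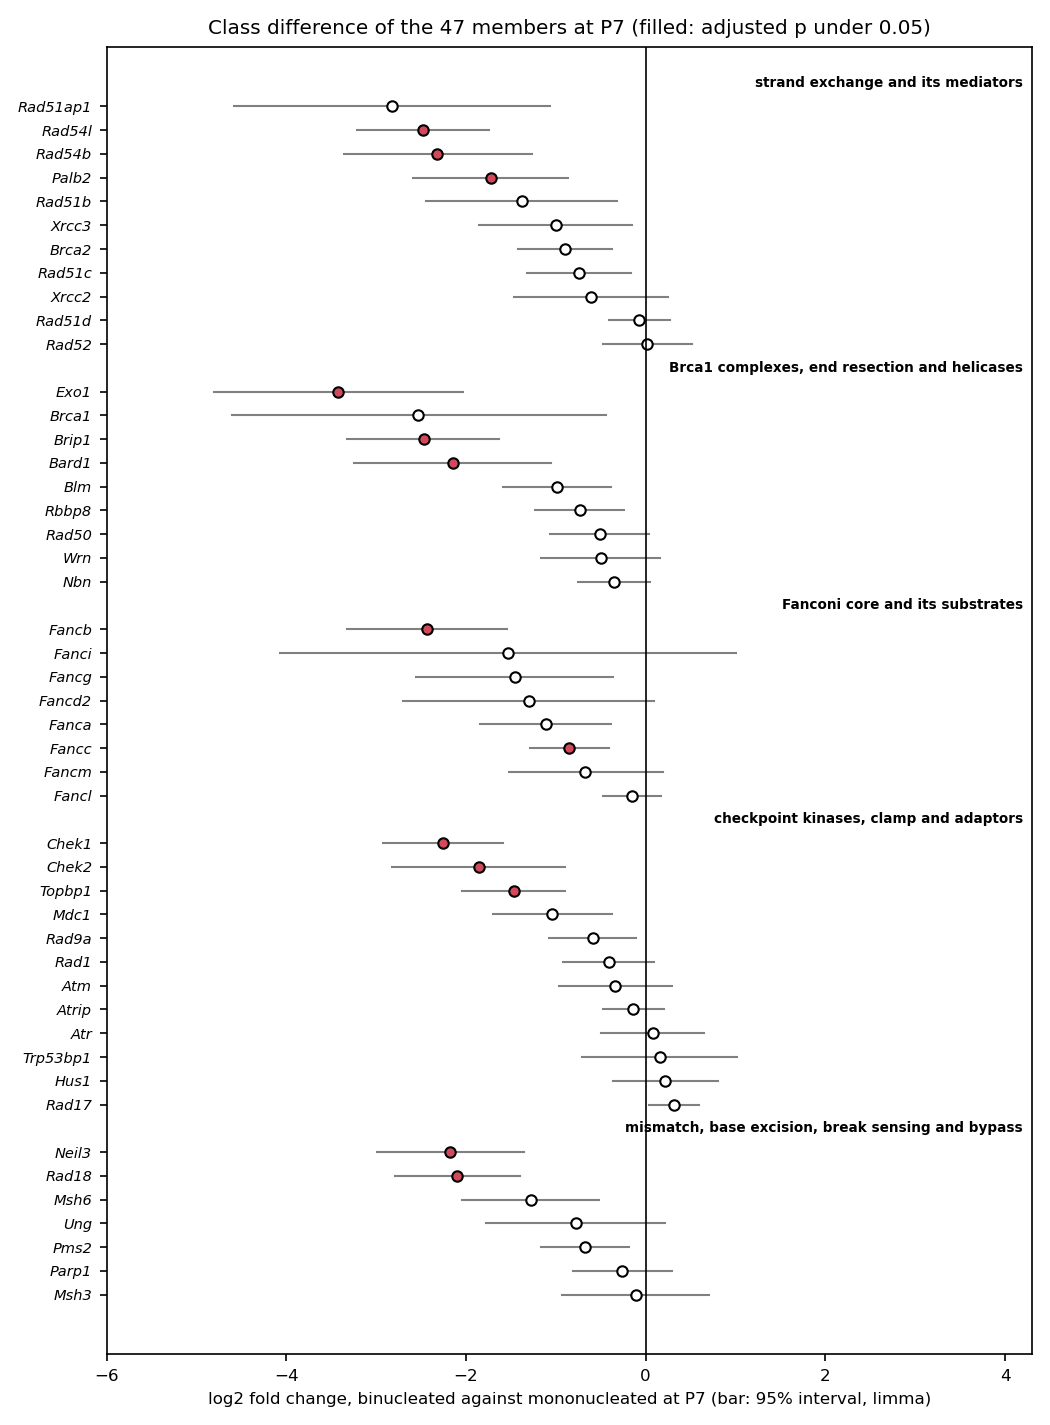
Log2 fold change of binucleated against mononucleated cells at P7 for the 47 members by role, with 95% intervals from limma; filled points passed at an adjusted p under 0.05. The 13 filled points lie between −3.42 and −0.85, and checkpoint members reach from −2.26 to 0.31.

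A missed threshold does not show that a steady member was equal between groups. At P7 the 95% intervals of the class difference of the 10 steady members reached from −1.78 to 1.02 on the log2 scale. For Rad51d and Atrip, no log2 fold change exceeded 0.29 in any comparison as fitted; even so, Rad51d was called with age under library totals as scaling, and Atrip under quantile normalization and array weights. Msh3, Parp1, Trp53bp1, Atm and Rad1 were called in an age comparison once binucleated replicate 1 at E18.5 was left out. Parp1, for example, then passed in adult against E18.5 mononucleated cells (−0.51, limma adjusted p = 0.00229 against 0.109 with that library). Other settings moved steady members too. Atm was called with age without adult mononucleated replicate 1 or 2, and Hus1 and Rad1 without binucleated replicate 3 at E18.5. Atr and Hus1 were called with age under array weights.

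Whether the class difference changed between E18.5 and P7 was tested directly. It was more negative at P7 for 7 of 47 members by limma, where 2.33% of all genes were called in either direction and 2.1% were more negative. The 7 were Bard1 (−3.66 ± 0.74 SE, limma adjusted p = 0.0138), Neil3 (−3.20 ± 0.54 SE), Fancb (−2.74 ± 0.59 SE), Brip1 (−2.68 ± 0.57 SE), Rad18 (−2.41 ± 0.46 SE), Rad54l (−2.26 ± 0.49 SE) and Chek1 (−2.18 ± 0.45 SE). Bard1 and Neil3 started from the other side: at E18.5 Bard1 had 1.03, 2.75 and 1.22 CPM in mononucleated and 4.2, 2.79 and 6.93 CPM in binucleated cells, and Neil3 averaged 15.6 ± 2.47 CPM (SD, n = 3) against 31.7 ± 4.11 CPM. These did not overlap and did not pass (1.51 ± 0.52 SE and 1.02 ± 0.39 SE, limma adjusted p = 0.236 and 0.277). The E18.5 binucleated libraries were also those with more fibroblast, endothelial and leukocyte markers, and the part of this in the result was not tested. A like change from P7 to the adult was called for 1 member, Brip1 (3.42 ± 0.57 SE, limma adjusted p = 0.0289), where 0.208% of all genes were called; that call was lost with the postnatal block (0.071). The count for E18.5 against P7 was 13 without binucleated replicate 1 at E18.5, 3 without mononucleated replicate 2 at P7 and 4 without binucleated replicate 2 at P7. Over all genes 568, 176 and 163 were called in these fits, against 281 as fitted.

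Changes with age were tested within each class. Between E18.5 and P7, 0 members passed in mononucleated cells (10.7% of all genes were higher and 7.84% lower; 5 members at an unadjusted p under 0.05), with a median of 0.08. In binucleated cells 21 passed, 20 of them lower, with a median of −0.74, where 36% of all genes were called, 18.2% higher and 17.7% lower. These comparisons share libraries with the class tests and are not separate evidence. In binucleated cells 8 of 9 fibroblast, 10 of 10 endothelial and 6 of 6 leukocyte markers were also lower at P7 than at E18.5. So were 5 of 7 pericyte and smooth muscle markers, with 1 higher. Their part was not tested. From P7 to the adult, 32 members were lower in mononucleated cells (41.4% of all genes called, 22.3% lower, member median −1.34). In binucleated cells 21 were lower (37% called, 19.7% lower, member median −0.60), and 0 were higher in either class. Most endothelial and leukocyte markers were called higher at this step, though the leukocyte sum of mononucleated cells did not rise, as given above. Of 7 pericyte and smooth muscle markers 3 were higher and 3 lower in mononucleated cells, and 3 higher and 2 lower in binucleated cells. The part of these markers was not tested. From E18.5 to the adult, 30 were lower and 1 higher in mononucleated cells, and 29 lower and 2 higher in binucleated cells, where 53.8% and 57.7% of all genes were called, 27.7% and 29.4% lower. Of these 31 and 31 calls, 27 and 26 held when any 1 library was left out. Among markers, 8 of 9 fibroblast and 5 of 5 erythroid ones were lower in adult than in E18.5 binucleated cells, and 1 fibroblast marker was higher. In mononucleated cells 4 of 5 erythroid markers were lower, while 9 of 10 endothelial and 6 of 6 leukocyte markers were higher. Of 7 pericyte and smooth muscle markers 3 were higher and 2 lower in mononucleated cells, and 2 higher and 3 lower in binucleated cells. The part of these other cells was not tested.

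The members that rose were few. Xrcc2, which also assists strand exchange, had 11.3, 14.1 and 12.3 CPM in E18.5 mononucleated cells and 29, 24 and 29.1 CPM in adult ones (1.12 ± 0.41 SE, limma adjusted p = 0.0281, and up to 0.0773 without 1 library). In binucleated cells it had 3.76, 14.8 and 17.5 CPM at E18.5 and 28.7, 20.1 and 29.2 CPM in the adult (1.37 ± 0.41 SE, limma adjusted p = 0.00861). The ages did not overlap in either class. Both calls were lost with library totals as scaling, which moved the median of all genes by −0.392 and −0.41 on the log2 scale. Rad17 was higher at P7 than at E18.5 in binucleated cells (0.37 ± 0.13 SE, limma adjusted p = 0.0331, and up to 0.141 without 1 library) and lower again in the adult (−0.45 ± 0.13 SE, limma adjusted p = 0.0112, and 0.0584 without adult binucleated replicate 2).

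Ung, which removes uracil from DNA, varied between replicates in a way that both classes shared. Its level in replicate 3 was 24.8 and 21.8 CPM at E18.5 and 24.3 and 17.9 CPM at P7, in mononucleated and binucleated cells. Replicates 1 and 2 of those groups held 29.4 to 74.8 CPM, so replicate 3 was the lowest in each of the 4 groups. In the adult replicate 2 was lowest in both classes, with 30.1 and 36.5 CPM. The P7 class difference of −0.78 ± 0.47 SE had a limma adjusted p of 0.705 without pairing, 0.643 with the postnatal block and 0.0134 with the replicate number as a block at every age. Binucleated cells held less than mononucleated ones in each of the 3 same-numbered pairs at P7, so its place among the steady members depends on the fit.

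**Figure D4:**
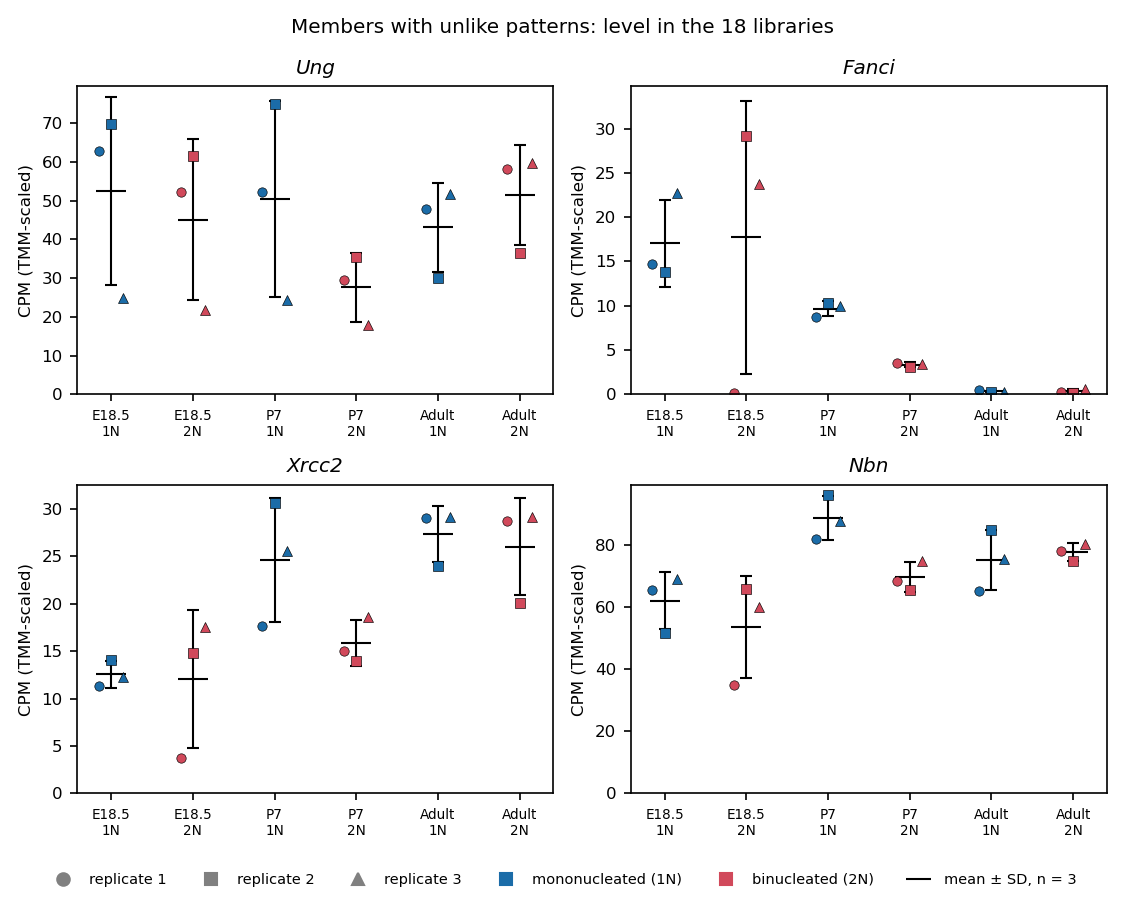
Level of Ung, Fanci, Xrcc2 and Nbn in each library on linear CPM axes that start at 0; points are libraries by replicate shape, and bars give the mean and SD of 3. Replicate 3 of Ung is lowest in the 4 groups at E18.5 and P7, 1 library of Fanci at E18.5 lies at 0.191 CPM, and Xrcc2 is higher in the adult than at E18.5.

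Other genes of these pathways, from lists by role, are read against the 2.12% of all genes called at P7. Of 29 other recombination and resection genes 6 were lower, among them Rpa2, a subunit of the protein that coats single-stranded DNA (−1.71 ± 0.17 SE, limma adjusted p = 8.02e-05), and Fignl1 (−2.34 ± 0.30 SE). Of 15 other Fanconi genes 2 were lower, Cenps (−1.98 ± 0.33 SE) and Ube2t, the conjugating enzyme of the pathway (−1.52 ± 0.27 SE). Of 21 other checkpoint genes 3 were lower, including Clspn, which brings Chek1 to Atr (−2.99 ± 0.43 SE, limma adjusted p = 0.000725). Of 22 other mismatch and base excision genes 2 were lower, the ligase gene Lig1 (−2.54 ± 0.38 SE) and the flap nuclease gene Fen1 (−2.50 ± 0.48 SE), both of which also serve DNA replication. In non-homologous end joining (14 genes), nucleotide excision and bypass (21) and the p53 response (15), 0 passed in either direction; at the share of all genes called, few would, and a difference from the other lists was not tested. Of 18 proliferation genes given for reference 14 were lower, with a median of −2.34, including Mcm6 (−2.54 ± 0.29 SE). The 13 cycling-linked members had a median of −2.18, which the choice of those members fixes in part.

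In the adult against E18.5, 53.8% of all genes were called in mononucleated and 57.7% in binucleated cells. Of 14 end joining genes 1 was higher and 1 lower in mononucleated cells, a share below that of all genes. In binucleated cells 3 were higher and 4 lower, near the shares of all genes (28.3% higher and 29.4% lower). Polq, the polymerase of microhomology-mediated joining, was higher in the adult in both classes (1.99 ± 0.52 SE and 2.57 ± 0.52 SE, limma adjusted p = 0.0041 and 0.000487). Of 15 p53 response genes 8 were higher and 3 lower in mononucleated cells, where 26.2% of all genes were higher and 27.7% lower. In binucleated cells 5 were higher and 4 lower, to be read against 28.3% and 29.4%. A difference from these shares was not tested. Ccng1, a cyclin induced by p53, was higher in the adult (1.94 ± 0.14 SE and 2.31 ± 0.14 SE), and Phlda3 was lower (−2.62 ± 0.21 SE and −3.75 ± 0.21 SE).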

How the data were processed

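The authors deposited log2 values for 12048 genes in each of 18 libraries. Per the submitters' processing notes, STAR, limma and build mm9 were used. Versions, counter, annotation release and gene filter: not given in the sources used here. In every library the deposited log2 value equalled the log2 of 1 library factor times a whole count raised by 0.5, so counts were recovered (tolerance 0.001), and the factors departed by at most 0.0044% from TMM sizes. GENCODE M21 gave symbols for 11927 Ensembl identifiers. limma 3.58.1 (R 4.3.3) was fitted to the deposited log2 values with 6 group means over 18 libraries (12 residual degrees of freedom) and an intensity trend; fold changes are on that scale and understate those of low genes. Tests were two-sided, adjusted over all genes within each of 11 comparisons, with a threshold of 0.05. The fit was tested on simulated counts with a shared dispersion, no pairing and no outlying library. That test does not bear on the pairing or the outlying library of these data. All 47 members were eligible to be named, with up to 2 genes per other pathway list. Members and lists were chosen with earlier results of these data known. Same-numbered libraries of both classes correlated in their deviations from the group means at 0.182 to 0.236 at P7 and 0.261 to 0.327 in the adult. Their numbers thus pair them. At E18.5 they correlated more weakly, at 0.0545 to 0.158, still above different-numbered libraries of that age (−0.0949 to 0.00177). The postnatal block leaves E18.5 unpaired, and the block within every age pairs it too. Intervals and floors on counts allow for counting error alone. The treatment of reads shared by near-identical genes is not given. Alternatives were other scalings, weights, offsets, blocks and leaving out each library.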

Additional observations from a re-analysis of the deposited data

Results flagged for a closer look

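The change of the class difference between E18.5 and P7 passed the limma test for 7 members, with log2 values of −3.66 for Bard1, −3.20 for Neil3, −2.74 for Fancb, −2.68 for Brip1, −2.41 for Rad18, −2.26 for Rad54l and −2.18 for Chek1. Each was lower in binucleated cells at P7 relative to its difference at E18.5. With the postnatal block all 7 still passed, with limma adjusted p up to 0.0499 (Rad54l). Neil3 and Rad18 passed under every alternative run.

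The change of the class difference between P7 and the adult passed for Brip1, at 3.42 on the log2 scale (limma adjusted p = 0.0289). It did not pass with the postnatal block (0.071) or without mononucleated replicate 2 at P7 (0.121). Adult libraries held few Brip1 counts, with 10, 3 and 4 in mononucleated and 8, 12 and 11 in binucleated cells.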

How the results depend on the processing

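Of 157 calls of members over the 11 comparisons, 113 held under every alternative. Of 4260 alternative values 4034 kept their call, 226 lost it and 0 turned direction. The 4034 include 157 from a count filter that removed no gene and so could not change a call. Leaving out 1 library at a time gave 0 to 0 members between classes at E18.5, 7 to 20 at P7 and 0 to 0 in the adult, 0 to 3 and 17 to 28 for P7 against E18.5 in mononucleated and binucleated cells, 29 to 35 and 16 to 29 for adult against P7, 28 to 36 and 27 to 36 for adult against E18.5, 3 to 13 for the change of the class difference from E18.5 to P7 and 0 to 6 from P7 to the adult. The P7 class count was 20 without binucleated replicate 1 at E18.5, 8 without mononucleated replicate 2 or 3 at P7 and 7 without binucleated replicate 2 at P7. Of all 12048 genes 574, 158 or 129, and 135 were called in these fits, against 256 as fitted. The P7 member count was 8 with quantile normalization, 32 with array weights and 22 with only the libraries of that age. The calls over all genes moved too, to 217, 1401 and 608, so these member counts are to be read against them. At E18.5, 1 member passed with voom weights and 1 with array weights, where 204 and 338 of all genes did, against 97 as fitted. For P7 against E18.5 in mononucleated cells the member count was 1 with quantile normalization, 2 with voom, 6 with array weights and 1 with an offset of 2 counts. The calls over all genes there were 2548, 2623, 5177 and 2358. In binucleated cells the member count was 32 with array weights, where 6161 of all genes were called, against 4332 as fitted. For the change from E18.5 to P7 the member count was 12 with voom, 20 with array weights and 11 with the offset of 2. Over all genes 430, 1199 and 381 were called in these settings, against 281 as fitted. For the change from P7 to the adult the member count was 2 with quantile normalization, 9 with array weights, 3 without the trend, 4 with library totals, 4 with the offset of 2, and 0 with voom, with only the ages compared and with either replicate block. Over all genes 31 were called with quantile normalization, 233 with array weights, 26 without the trend, 42 with library totals and 35 with the offset of 2. The cause of these moves was not tested.

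With the postnatal replicate block (the pairing by replicate number at P7 and adult), the P7 count was 10 and the count for the change from E18.5 to P7 was 7. With the block within every age they were 14 and 5. Over all genes 229 and 204 were called with the postnatal block, and 285 and 291 with the block within every age. Calls lost with the narrower block were Bard1, Chek2 and Fancc at P7 and Brip1 for the change from P7 to the adult. Ung gained a call between classes at P7 with the block within every age (limma adjusted p = 0.0134) and not with the narrower one (0.643). A block over all ages, for the age comparisons, was chosen after seeing the data. Library totals as scaling moved the median of all genes by −0.106 between classes at P7, by −0.306 and −0.22 for adult against P7 and by −0.392 and −0.41 for adult against E18.5. Requiring 10 counts in 3 libraries kept all 12048 genes and says nothing of stability. Depth limits Exo1, Neil3 and Fancd2 in the adult, where 0 to 4 counts per group remained. It limits other members there too. Adult mononucleated and binucleated groups held 5 and 6 counts of Rad54b, 17 and 8 of Rad51ap1 and 18 and 11 of Brca1. They held 15 and 14 counts of Bard1, 17 and 31 of Brip1 and 17 and 18 of Fanci.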
